A study of Homo sapiens with 18 samples.

Results

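The heat shock chaperones described here are 10 of the 20046 genes that a probe of the array names, HSPB8, HSPB1, BAG3, HSPA1A, HSPA1B, HSPA8, DNAJB1, HSPH1, HSP90AA1 and HSPE1. Every probe that the platform annotation names for one of them was taken, which gave 14 probes of the 47323 on the array and of the 30113 with a single gene symbol. HSPA8 and HSPE1 had 2 probes each and HSP90AA1 had 3, so probes of these genes share a target and are not replicates. The list was chosen by its signals under STAT3 siRNA, above all that of HSPB8, so all values of that comparison are a description without a test. All 14 probes passed the filter, a detection p under 0.01 on all 3 arrays of at least 1 of the 6 groups. Only the HSPA1A probe was undetected in some groups, which were both UC7 groups.

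RNA was measured on 18 Illumina bead arrays from 3 human bladder cancer cell lines, UC14, Scaber and UC7. UC14 cells carried an shRNA against p63, a transcription factor of basal epithelia, and were compared with UC14 cells carrying a non-targeting shRNA. Scaber cells received an siRNA against STAT3, a transcription factor that cytokines activate, and were compared with Scaber cells given a non-targeting siRNA. UC7 cells were treated with rosiglitazone, which activates the nuclear receptor PPARγ, at 1 µM for 24 h and were compared with UC7 control cells, for which the labels name no vehicle. Each group had 3 arrays, and each intervention was made in 1 line only, so an agent and its line cannot be told apart between comparisons. The labels name no shRNA or siRNA sequence, so 1 reagent against each target is all that can be read from them, and nothing in them says that a group's arrays are separate cultures. The p-values below therefore measure only array-to-array spread within groups, pooled over all 6 groups and possibly technical. In bulk RNA, fewer cells with a transcript and less transcript per cell cannot be told apart.

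Molecular chaperones bind unfolded proteins and keep them from aggregating. Small heat shock proteins such as HSPB8 and HSPB1 hold unfolded clients, HSP70 proteins fold them with the help of J proteins and nucleotide exchange factors, and HSP90 matures kinases and receptors. BAG3 joins HSPB8 to HSP70 and routes clients to selective autophagy. Heat shock factor 1 induces many of these genes by binding heat shock elements, inverted repeats of the unit GAA and its complement TTC in their promoters.

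The arrays differed by line. Median signals ran from 98.5 to 114 on UC14 arrays, from 96.3 to 116 on Scaber arrays and from 51.6 to 56.3 on UC7 arrays, and the number of detected probes was lowest in UC14, with 14032 to 15432 per array. Fitted array weights ranged between 0.37 and 0.774 for UC14 and between 1.16 and 2.44 for UC7. Of 15 urothelial and epithelial markers, 10 to 12 were detected on all 3 arrays of each group, among them EPCAM, CDH1 and KRT7, while KRT20, a keratin of differentiated umbrella cells, was undetected in all 6 groups. GATA3, a luminal factor, was undetected in Scaber. In UC14, KRT5 was detected on all 3 arrays with non-targeting shRNA and on none with p63 shRNA, and UPK2 the other way round. UPK3A was detected on all 3 rosiglitazone arrays and on no other array, and KRT14 only in Scaber. Of 7 stromal and muscle markers, 2 to 3 were detected on all 3 arrays of each group. ACTA2 was detected on all 18 arrays and COL1A1 on all but 2 rosiglitazone arrays, while COL3A1, PDGFRB, DES and MYH11 were undetected throughout. Of 8 immune and endothelial markers, 1 to 4 were detected on all 3 arrays of each group. CD68, a lysosomal protein used as a macrophage marker, was detected on all 18 arrays and CD14 and PECAM1 on many, while PTPRC, CD3E and VWF were undetected throughout. The summed linear signal, after background correction, of the immune and endothelial list moved with the groups. It was 2967 to 3180 under p63 shRNA, against 1152 to 1546 under non-targeting shRNA. It was 1934 to 2056 under STAT3 siRNA, against 2925 to 2972 under non-targeting siRNA, and 471 to 494 under rosiglitazone, against 239 to 251 in UC7 control cells. The stromal sum was 304 to 400 under p63 shRNA, against 463 to 511. It was 390 to 470 under STAT3 siRNA, against 264 to 321, and 162 to 177 under rosiglitazone, against 121 to 140. The urothelial and epithelial sum was 75170 to 79210 under p63 shRNA, against 52140 to 56950. It was 12000 to 12370 under STAT3 siRNA, against 11000 to 11710, and 42200 to 45560 under rosiglitazone, against 43480 to 47650. The part of these markers in the results was not tested. Under STAT3 siRNA in Scaber, STAT3 itself fell by 2.77 on the log2 scale on 1 probe and fell by 3.26 on another, and 1 more probe, undetected under the siRNA, was at least 7.45-fold lower. No probe is named for TP63, which was therefore not analysed here, and the p63 knockdown was not checked on the arrays.

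The promoters of these genes were searched for pairs of heat shock element units, and 5 of them are shown because their genes gave different values on the arrays. RefSeq promoters on GRCh38.p14, from 250 bases before to 50 bases after the start of transcription, were found for all 10 genes, with 13 promoters in all since DNAJB1 and HSP90AA1 have several. The sequences run 5′ to 3′ on the gene's strand. Capitals mark each match to GAANNTTC or TTCNNGAA, the head-to-head and tail-to-tail pairs of heat shock element units. Both motifs read the same on both strands, and they overlap where 3 units follow each other.
HSPB8, chr12:119178681-119178980, plus strand: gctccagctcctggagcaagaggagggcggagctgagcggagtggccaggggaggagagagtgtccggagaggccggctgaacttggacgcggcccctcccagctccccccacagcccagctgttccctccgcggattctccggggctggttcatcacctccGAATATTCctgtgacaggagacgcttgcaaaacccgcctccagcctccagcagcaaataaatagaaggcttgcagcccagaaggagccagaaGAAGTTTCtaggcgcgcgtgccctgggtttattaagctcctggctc
BAG3, chr10:119651130-119651429, plus strand: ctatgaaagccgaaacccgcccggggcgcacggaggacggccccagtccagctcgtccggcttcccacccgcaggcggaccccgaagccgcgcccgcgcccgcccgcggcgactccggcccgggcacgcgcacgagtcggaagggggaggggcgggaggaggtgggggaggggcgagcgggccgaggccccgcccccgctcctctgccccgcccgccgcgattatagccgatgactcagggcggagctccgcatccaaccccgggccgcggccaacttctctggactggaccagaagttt
HSPA1A, chr6:31815293-31815592, plus strand: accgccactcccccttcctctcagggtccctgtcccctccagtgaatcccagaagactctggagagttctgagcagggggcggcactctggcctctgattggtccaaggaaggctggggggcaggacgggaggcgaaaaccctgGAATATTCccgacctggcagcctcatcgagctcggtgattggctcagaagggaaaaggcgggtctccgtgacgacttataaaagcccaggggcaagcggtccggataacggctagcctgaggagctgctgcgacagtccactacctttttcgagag
HSPA1B, chr6:31827488-31827787, plus strand: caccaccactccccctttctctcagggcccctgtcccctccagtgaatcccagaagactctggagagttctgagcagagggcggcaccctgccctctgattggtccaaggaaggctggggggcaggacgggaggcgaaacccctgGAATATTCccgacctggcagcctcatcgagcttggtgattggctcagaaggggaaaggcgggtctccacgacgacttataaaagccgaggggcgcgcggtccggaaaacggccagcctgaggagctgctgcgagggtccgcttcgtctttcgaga
HSPA8, chr11:123062087-123062386, minus strand: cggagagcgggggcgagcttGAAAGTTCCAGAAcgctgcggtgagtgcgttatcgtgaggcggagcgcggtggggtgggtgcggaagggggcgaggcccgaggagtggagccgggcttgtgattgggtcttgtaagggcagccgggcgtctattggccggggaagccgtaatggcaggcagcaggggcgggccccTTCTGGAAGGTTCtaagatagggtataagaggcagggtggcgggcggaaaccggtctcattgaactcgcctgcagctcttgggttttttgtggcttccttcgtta

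HSPB8 held 2 matches to GAANNTTC, GAATATTC starting at position -88 from the start of transcription and GAAGTTTC starting 4 bases after the first transcribed base. HSPA1A and HSPA1B each held GAATATTC, at -106 and -105, in promoters that were 92% identical over 301 aligned positions. HSPA8 held 2 runs of 3 units, GAAAGTTCCAGAA at -230 and TTCTGGAAGGTTC at -55. BAG3 held no match within these 300 bases, nor did HSPH1 or HSPE1. Counting all 13 promoters, 7 of the 10 genes had at least 1 pair of units and 2, HSPA8 and HSP90AA1, had 3 units in a row. By promoter, the unit of the background below, 8 of the 13 held at least 1 pair. Among 35116 RefSeq promoters of the same length, 13.5% held a match to GAANNTTC or TTCNNGAA and 0.49% held 3 units in a row. TTCNNNGAA, the spacing that STAT factors are known to bind, was in none of the 13 promoters and in 7.66% of the 35116. These matches are letters in a window and say nothing of binding.

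Levels of the small heat shock proteins and of BAG3 differed widely between the lines. HSPB8 gave a log2 signal of 7.63, 8.04 and 8.10 in UC14 cells with the non-targeting shRNA, against 5.39, 5.38 and 5.78 in UC7 control cells. That was 2.41 ± 0.13 higher (SE, n = 3 each), or 5.3-fold (limma, adjusted p = 6.61e-11). HSPB1, the abundant small heat shock protein also called HSP27, was 2.21 ± 0.13 higher in UC14, or 4.62-fold (adjusted p = 1.07e-10, limma). BAG3 was 1.56 ± 0.11 higher, or 2.95-fold (adjusted p = 1.11e-09, limma). When the arrays were scaled by their medians, the differences were smaller, at 1.29 for HSPB8, 1.13 for HSPB1 and 0.35 for BAG3. In Scaber with non-targeting siRNA, HSPB8 gave 7.41, 7.35 and 7.18. Ordered by mean, HSPB8 was highest in Scaber with STAT3 siRNA (9.37), then in UC14 with non-targeting shRNA (7.92), Scaber with non-targeting siRNA (7.32), UC14 with p63 shRNA (7.30), UC7 control cells (5.52) and UC7 cells on rosiglitazone (5.10). Only Scaber with non-targeting siRNA and UC14 with p63 shRNA overlapped among neighbours in that order. Within the kept probes of their own group, HSPB8 sat at percentile 60.5 in UC14 with non-targeting shRNA and at percentile 19.2 in UC7 control cells, so its UC7 signal was near the dim end of the array. The authors' deposited log2 values lay closer together, at 8.04, 8.36 and 8.41 in UC14, against 6.74, 6.73 and 6.90 in UC7 control cells. The fold between these lines thus depends on the processing.

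**Figure D1:**
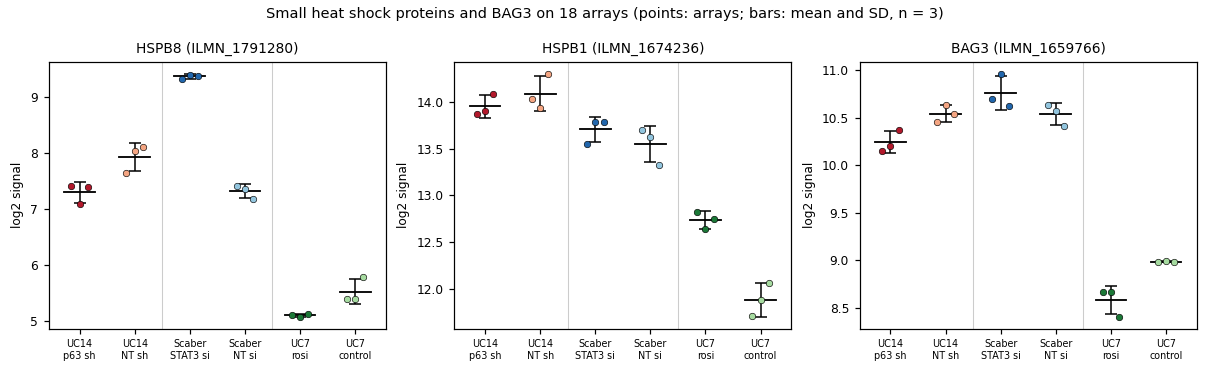
Log2 signal (vertical axis) of the HSPB8, HSPB1 and BAG3 probes in the 6 groups, with p63 shRNA, STAT3 siRNA and rosiglitazone arrays left of their controls; points are arrays, long bars are group means and whiskers are SDs of 3 arrays. All 6 UC7 arrays lie below all UC14 and Scaber arrays for each gene, and HSPB8 under STAT3 siRNA, at 9.32 to 9.40, lies above every other array.

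The stress-inducible HSP70 genes HSPA1A and HSPA1B, adjacent copies that encode almost the same protein, gave unlike values in the lines. The HSPA1A probe gave 11.70, 11.96 and 12.06 in UC14 with non-targeting shRNA and was undetected on all 6 UC7 arrays. With the main processing, that put it at least 124-fold higher in UC14 than in UC7 control cells. The probe passed the detection filter only through UC14 and Scaber groups, so no p-value is given for this difference. The bound holds on that scale only. With the undetected UC7 signal taken as it stood, the log2 difference was 7.367 in the main fit. It ranged from 5.565, in the authors' deposited log2 values, to 7.47 over the other settings. The HSPA1A mean was 11.09 in Scaber with non-targeting siRNA. The HSPA1B probe was detected on all 18 arrays and gave 11.46, 11.61 and 11.65 in UC7 control cells. So 1 copy's probe was at background in UC7 while the other's was bright on the same arrays. How far each probe also reads the other copy was not tested, since probe sequences were not used here. HSPA1B was 0.64 ± 0.10 higher in UC14 with non-targeting shRNA than in UC7 control cells (adjusted p = 3.11e-05, limma), but 0.41 lower with median scaling.

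Against UC7 control cells, 9 of the 14 probes were higher in UC14 with non-targeting shRNA and 4 were lower, where 72.3% of all 16221 kept probes passed the threshold, 31.3% higher and 41% lower. The median change was 0.37 over the 14 probes and -0.13 over all kept probes, and the groups did not overlap at 13 of the 14 and at 73.7% of all kept probes. The 9298 probes detected on all 18 arrays gave another background. Of these 77.4% passed, 4037 higher and 3162 lower, with a median of 0.12. The 13 member probes in that set, all but that of HSPA1A, gave 8 higher and 4 lower. Of the 94 other chaperone genes described below, 39 were higher and 26 lower, where 73.1% of all genes passed, 31.9% higher and 41.3% lower, and with median scaling 8 were higher and 64 lower. Median scaling moved the median of all kept probes to -1.12 and the share of calls that were higher to 7.58%, against 43.3% with quantile normalization, and it left 4 of the 14 probes higher and 10 lower. HSPB8, HSPB1, BAG3 and HSPA1A were higher in UC14 than in UC7 under both scalings. The constitutive HSP70 gene HSPA8, HSPA1B and 2 of the 3 HSP90AA1 probes were higher with quantile normalization and lower with median scaling. With median scaling, these probes stood between -0.75 and -0.30, still above the median of all kept probes. DNAJB1, the main J protein partner of cytosolic HSP70, was 0.50 ± 0.09 lower in UC14 (adjusted p = 0.000126, limma) and HSPH1, the HSP110 exchange factor of HSP70, was 0.27 ± 0.09 lower (adjusted p = 0.0128, limma). With median scaling these differences were -1.67 for DNAJB1 and -1.22 for HSPH1. The HSPH1 call was lost without UC14 non-targeting shRNA replicate 3, with a difference of -0.22. Other calls near the threshold were also lost with an array left out. The first HSPA8 probe lost its call without UC14 replicate 2 (0.24) or UC7 replicate 3 (0.19). HSP90AA1 probe ILMN_1687546 lost its call without UC14 replicate 3 (-0.19) or UC7 replicate 1 (-0.28) or 2 (-0.33), and probe ILMN_1691097 without UC14 replicate 1 (0.21) or 2 (0.23) or UC7 replicate 1 (0.28), 2 (0.29) or 3 (0.20). The first HSPE1 probe, at -0.63, lost its call without any 1 of these arrays except UC14 replicate 1, with values from -0.70 to -0.55. Line, control type and any array batch are the same split here and cannot be told apart.

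**Figure D2:**
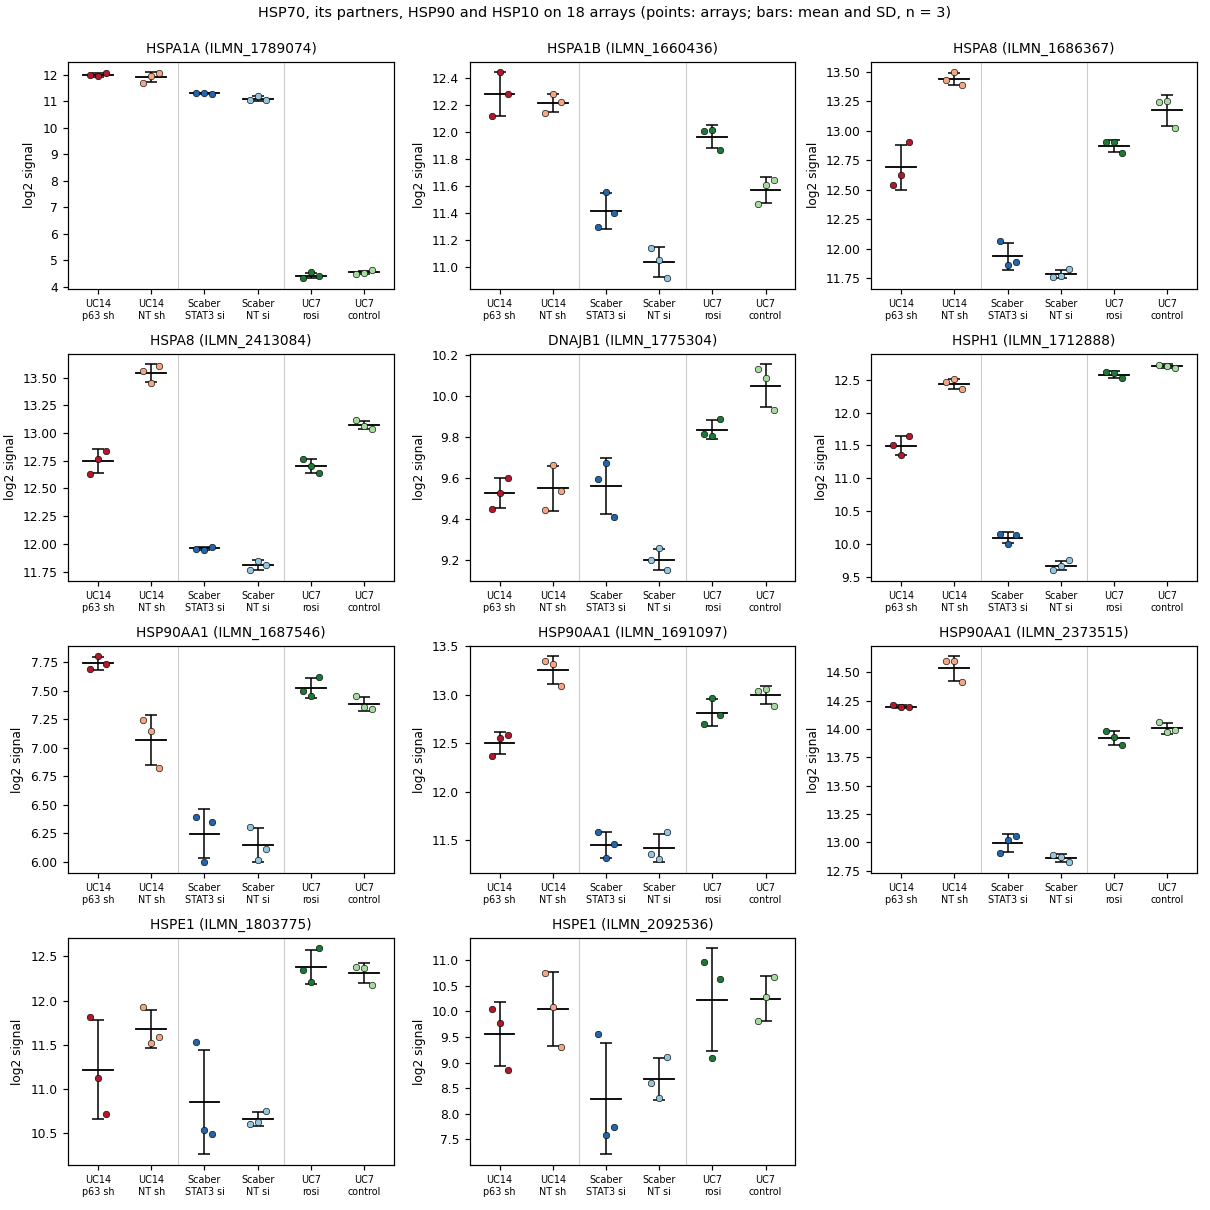
Log2 signal (vertical axis, a separate range in each panel) of the 11 probes of HSPA1A, HSPA1B, HSPA8, DNAJB1, HSPH1, HSP90AA1 and HSPE1 in the 6 groups, with p63 shRNA, STAT3 siRNA and rosiglitazone arrays left of their controls; points are arrays and bars are means with SDs of 3 arrays. HSPA1A drops to background in UC7, HSPA8 and HSPH1 are lower under p63 shRNA without overlap, and the second HSPE1 probe (ILMN_2092536) spreads widely within groups.

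Under p63 shRNA in UC14, HSPH1, HSPA8, HSPB8 and BAG3 were lower, and HSP90AA1 had probes that were lower and 1 that was higher. HSPB1, HSPA1A, HSPA1B, DNAJB1 and HSPE1 did not pass. HSPH1 fell most among the 14 probes, by 0.94 on the log2 scale, both HSPA8 probes fell by 0.75 and 0.79, and HSPB8 fell by 0.63. Of the 14 probes, 7 were lower, 1 was higher and 6 did not pass. The background was 41.9% of all kept probes called, 22% higher and 19.9% lower. With median scaling 4 were lower and 1 higher, and the share of all calls that were higher was 70.9%, against 52.4% with quantile normalization. The median change was -0.40 over the 14 probes and 0.00273 over all kept probes, and the 2 groups did not overlap at 8 of the 14 probes and at 44.7% of all kept probes. Of the 9298 probes detected on all 18 arrays, 54.1% passed, 2336 higher and 2691 lower, with a median of -0.04. The 13 member probes in that set gave 1 higher and 7 lower.

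HSPB8 gave 7.41, 7.08 and 7.40 with p63 shRNA, against 7.63, 8.04 and 8.10 with non-targeting shRNA. All 3 p63 shRNA arrays were below all 3 controls, of which replicate 1 was nearest. The change was -0.63 ± 0.13 (SE), or 1.54-fold lower (adjusted p = 0.00126, limma). With median scaling it was -0.45 and no longer passed (adjusted p = 0.0628, limma). HSPB1 gave 13.87, 13.90 and 14.09 with p63 shRNA, against 14.04, 13.93 and 14.30. Its arrays overlapped, and its change of -0.14 had a 95% interval of -0.41 to 0.13.

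BAG3 gave 10.15, 10.21 and 10.38 with p63 shRNA, against 10.46, 10.64 and 10.54 with non-targeting shRNA. The groups did not overlap, and the change was -0.30 ± 0.11 (adjusted p = 0.0351, limma). That call did not hold without non-targeting shRNA replicate 2 (-0.25) or 3 (-0.30) or without p63 shRNA replicate 1 (-0.25) or 2 (-0.28), nor with median scaling (-0.18) or array weights (-0.33). It was also lost when only the 6 UC14 arrays were fitted (adjusted p = 0.0856, limma).

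Among the HSP70 genes, HSPA8 was lower and neither inducible copy passed. HSPA1A gave 11.98, 11.94 and 12.06 with p63 shRNA, against 11.70, 11.96 and 12.06, and its change of 0.08 had a 95% interval of -0.13 to 0.29. HSPA1B gave 12.12, 12.44 and 12.29 with p63 shRNA, against 12.14, 12.28 and 12.22, and its change of 0.07 had an interval of -0.15 to 0.29. Both copies overlapped between the groups. HSPA8, the constitutive HSP70 that also drives chaperone-mediated autophagy, gave 12.54, 12.63 and 12.91 with p63 shRNA on its first probe (ILMN_1686367), against 13.43, 13.50 and 13.39. On its second probe (ILMN_2413084) it gave 12.63, 12.77 and 12.84, against 13.56, 13.45 and 13.61. The probes fell by 0.75 ± 0.10 and 0.79 ± 0.08 (adjusted p = 1.69e-05 and 7.25e-07, limma), with the groups well apart on both. HSPA8 has processed pseudogenes, and reads of these by the probes were not told apart.

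Of the partners of HSP70, HSPH1 was lower and DNAJB1 did not pass. HSPH1 gave 11.50, 11.35 and 11.64 with p63 shRNA, against 12.46, 12.50 and 12.35 with non-targeting shRNA. It was 1.92-fold lower, a change of -0.94 ± 0.09 (adjusted p = 2.76e-07, limma). DNAJB1 gave 9.45, 9.53 and 9.60 with p63 shRNA, against 9.44, 9.66 and 9.53. These overlapped, and the change of -0.02 had a 95% interval of -0.22 to 0.17.

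The 3 probes of HSP90AA1, the inducible cytosolic HSP90, moved in opposite directions. Probe ILMN_1691097 gave 12.37, 12.55 and 12.58 with p63 shRNA, against 13.35, 13.32 and 13.09, a change of -0.75 ± 0.11 (adjusted p = 4.43e-05, limma). Probe ILMN_2373515 gave 14.21, 14.19 and 14.19, against 14.60, 14.60 and 14.41, a change of -0.34 ± 0.08 (adjusted p = 0.00285, limma) that missed the threshold with median scaling at -0.27. Probe ILMN_1687546 gave 7.69, 7.80 and 7.74, against 7.24, 7.15 and 6.82, a change of 0.67 ± 0.12 (adjusted p = 0.000317, limma). None of the 3 overlapped between the groups. The annotation gives ILMN_1687546 and ILMN_1691097 the same transcript accession, so which transcript each reads could not be told apart, and no single direction is given for the gene.

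HSPE1, the mitochondrial co-chaperonin HSP10, did not pass on either probe. Probe ILMN_1803775 gave 11.82, 11.12 and 10.71 with p63 shRNA, against 11.92, 11.52 and 11.59, and its change was -0.46 ± 0.26 (adjusted p = 0.17, limma). Without p63 shRNA replicate 1, the highest of its group, it was -0.76 and passed (adjusted p = 0.0217, limma). Probe ILMN_2092536 ranged from 8.86 to 10.03 with p63 shRNA and from 9.31 to 10.75 with non-targeting shRNA, and its 95% interval of -1.63 to 0.64 covers changes of either sign.

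**Figure D3:**
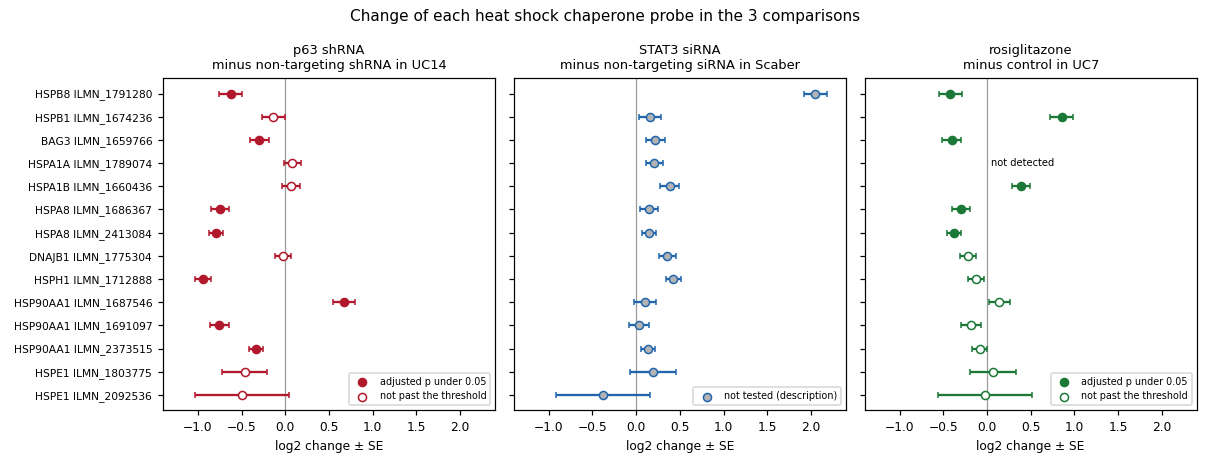
Log2 change ± SE (horizontal axis) of the 14 probes, 1 per row, in p63 shRNA minus non-targeting shRNA, STAT3 siRNA minus non-targeting siRNA, and rosiglitazone minus control; filled points passed an adjusted p under 0.05 and open points did not, while the Scaber points are all drawn alike since they were not tested. HSPB8 stands at 2.05 under STAT3 siRNA and at -0.63 and -0.42 in the other comparisons, and the 3 HSP90AA1 probes lie on both sides of 0 under p63 shRNA.

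Of 94 other chaperone and heat shock genes that were tested under p63 shRNA, 39 were lower and 14 higher, with a median of -0.27, where 43.8% of all 11978 genes passed, 20.5% lower and 23.3% higher, with a median of 0.00629. With median scaling 23 were lower and 13 higher. In the TRiC and prefoldin list, the ring chaperonin for actin and tubulin and its loader, 9 of 14 were lower and none higher, among them CCT2 (-0.86 ± 0.11), CCT4 (-0.81 ± 0.14) and CCT6A (-0.66 ± 0.08). All 3 had adjusted p-values from 8.39e-06 to 0.000154 (limma). Of 7 mitochondrial chaperones 6 were lower. GRPEL1, the exchange factor of mitochondrial HSP70, fell by 0.91 ± 0.10, HSPD1, the HSP60 chaperonin that pairs with HSPE1, by 0.67 ± 0.09, and CLPX, an unfoldase, by 0.58 ± 0.13. The 2 further HSPD1 probes fell by 0.85 and 0.89.

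Of 11 genes for HSP90 and its co-chaperones, 7 were lower and none higher. HSP90AB1, the constitutive cytosolic HSP90, fell by 0.88 ± 0.10 (adjusted p = 3.06e-06, limma), CHORDC1, an HSP90 co-chaperone, by 1.09 ± 0.16, and PPID, an HSP90-binding cyclophilin detected on 2 of 3 p63 shRNA arrays, by 1.17 ± 0.31. Among 9 other HSP70 and HSP110 genes, 4 were lower and 3 higher. HSPA4L and HSPA4, HSP110 proteins like HSPH1, fell by 1.48 ± 0.10 and 0.89 ± 0.11. A second HSPA4 probe, at -0.14, did not pass. HSPA12A, a distant HSP70 relative, was 1.64 ± 0.25 higher and was detected on 2 of 3 control arrays. HSPA2, counted as higher, was undetected on all 6 arrays, so no change is given for it. Of 13 ER chaperones 6 were lower and none higher, with CANX, the lectin chaperone calnexin, at -0.89 ± 0.10, DNAJC3 at -0.59 ± 0.13 and HSP90B1, the ER form of HSP90, at -0.52 ± 0.10. With median scaling 3 of the 13 were lower.

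Of 9 genes for chaperone-assisted autophagy and degradation, the route that BAG3 and HSPB8 feed, 4 were higher by their brightest probe, none was lower and 5 did not pass. The 4 included SQSTM1, the p62 autophagy receptor (0.45 ± 0.10, adjusted p = 0.00204, limma), and HDAC6, a carrier of ubiquitinated aggregates (1.21 ± 0.22, adjusted p = 0.000294, limma), which was detected on 1 of 3 control arrays. UBQLN1 was 0.38 higher on its brightest probe, but its other probes were at -0.36 and -0.41, so no direction is given for it. Among 5 other BAG proteins 2 were higher and 2 lower. BAG1, which binds HSP70 and the proteasome, was at least 1.19-fold higher, since it was undetected with non-targeting shRNA, and BAG2, an inhibitor of the ligase CHIP, was -0.54 ± 0.14 and missed the threshold with median scaling (-0.37). BAG6 stood at 0.33, a call lost without non-targeting shRNA replicate 3 (0.25) or p63 shRNA replicate 1 (0.31) or 3 (0.30), and its other probe, at -0.04, did not pass. In the J protein list 2 of 12 were higher and 2 lower. DNAJC7 stood at -0.54 ± 0.12 and DNAJC21 at 0.55 ± 0.15, a gene whose second probe was undetected on all 6 arrays, and DNAJA4 stood at 0.37, a call lost without non-targeting shRNA replicate 1 (0.25). When only the 6 UC14 arrays were fitted, BAG2, BAG6 and DNAJA4 also lost their calls (adjusted p = 0.0524, 0.0836 and 0.0832, limma). Array weights lost those of BAG6 and DNAJA4 too (adjusted p = 0.0646 and 0.133, limma).

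Of the 2 other small heat shock genes tested, HSPB3 was detected on 1 p63 shRNA array and no control array, and IFT25, a ciliary transport protein once named HSPB11, was 0.47 ± 0.14 higher, or 0.38 and no longer called without p63 shRNA replicate 1. None of HSF1, HSF4 and HSBP1, a protein that binds heat shock factor 1, passed. Among 9 other genes known to be heat-induced, 2 were higher and 3 lower, and these included the widest changes of all lists. HMOX1, heme oxygenase 1, was 3.09 ± 0.17 higher (adjusted p = 5.59e-10, limma), and SERPINH1, the collagen chaperone HSP47, fell by 1.66 ± 0.10 (adjusted p = 8.57e-10, limma). ATF3, a stress transcription factor, stood at -0.45 with overlapping groups, and its call was lost when non-targeting shRNA replicate 1 (-0.36) or 2 (-0.34) or p63 shRNA replicate 2 (-0.51) or 3 (-0.28) was left out. Median scaling, array weights, no detection filter and a fit on only the 6 UC14 arrays lost that call too.

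**Figure D4:**
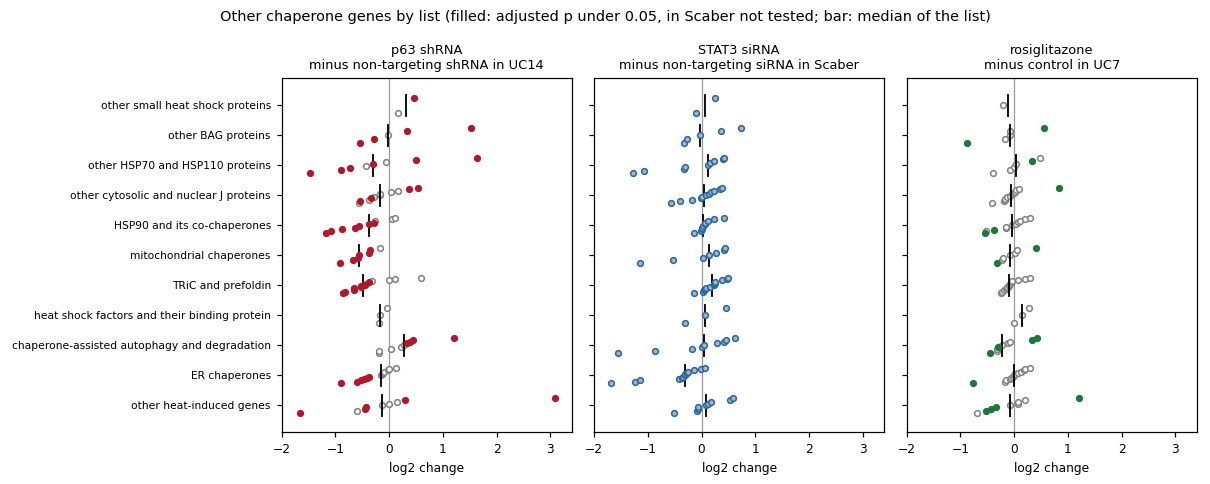
Log2 change (horizontal axis) of other chaperone genes in 11 lists (rows) for p63 shRNA, STAT3 siRNA and rosiglitazone, each minus its control; points are genes by their brightest kept probe, filled dark where the adjusted p was under 0.05, grey in Scaber, where nothing was tested, black bars are list medians, and genes undetected in both groups are not drawn. Under p63 shRNA the mitochondrial, TRiC and HSP90 lists lie mostly left of 0, and under rosiglitazone most genes lie close to 0.

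Under STAT3 siRNA in Scaber, HSPB8 differed by more than any of the other 9 genes, as its choice implies. It gave 9.32, 9.40 and 9.38 with STAT3 siRNA, against 7.41, 7.35 and 7.18 with non-targeting siRNA, a difference of 2.05 ± 0.13 (SE, n = 3 each), or 4.14-fold. Among the 16221 kept probes, ordered from the highest upward difference, it stood at rank 5. The size depended on the background correction, at 1.66 without one and at 1.69 in the authors' deposited log2 values. Its partner BAG3 did not follow it closely, with 10.70, 10.96 and 10.62 under STAT3 siRNA, against 10.64, 10.58 and 10.41. These overlapped, and the difference was 0.22 ± 0.11. HSPB1 gave 13.55, 13.78 and 13.79 with STAT3 siRNA, against 13.70, 13.62 and 13.33, and it overlapped too, with a difference of 0.16 ± 0.13.

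The other members differed by small amounts, mostly upward. HSPH1 gave 10.15, 10.00 and 10.14 with STAT3 siRNA, against 9.60, 9.66 and 9.75, a difference of 0.42 ± 0.09 with no overlap. HSPA1B gave 11.29, 11.56 and 11.40, against 11.14, 11.05 and 10.91, a difference of 0.38 ± 0.10. DNAJB1 gave 9.59, 9.67 and 9.41, against 9.20, 9.25 and 9.15, a difference of 0.36 ± 0.09. HSPA1A differed by 0.21 ± 0.10, the 2 HSPA8 probes by 0.15 each and the 3 HSP90AA1 probes by 0.04 to 0.13. The first HSPE1 probe gave 11.53, 10.53 and 10.48, against 10.60, 10.62 and 10.75, and the second gave 9.56, 7.59 and 7.74, against 8.61, 8.30 and 9.11. STAT3 siRNA replicate 1 was the highest array of both groups on both HSPE1 probes. The differences were 0.19 on the first and -0.38 on the second, and without that array they were -0.15 and -1.0. Over the 14 probes the median was 0.17, and 13 were above 0 and 1 below. The groups did not overlap at 8 of the 14 probes and at 37.9% of all kept probes. With median scaling the differences were 1.94 for HSPB8, 0.34 for HSPH1 and 0.25 for DNAJB1.

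In the lists around them, ER chaperones differed most under STAT3 siRNA. CRELD2, an ER stress gene, stood at -1.68 ± 0.11, CANX at -1.24 ± 0.10 and DNAJB9, a J protein of the ER, at -1.14 ± 0.16, and the median of the 13 ER genes was -0.32. GRPEL1 stood at -1.15 ± 0.10. UBQLN1, a shuttle factor for ubiquitinated proteins, stood at -1.55 ± 0.12 on its brightest probe and at -0.38 and -0.26 on 2 others. Higher values included BAG2 at 0.73 ± 0.14, VCP, the AAA segregase, at 0.62 ± 0.13, and ZFAND2A, a heat-induced regulator of the proteasome, at 0.53 ± 0.09. HMOX1 stood at -0.52 ± 0.17, with 2 of 3 STAT3 siRNA arrays detected. Over all 94 genes the median was 0.036.

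Under rosiglitazone in UC7, HSPB1 was higher, and HSPB8 was lower by a call that several settings lost. HSPB1 gave 12.82, 12.64 and 12.74 with rosiglitazone, against 11.70, 11.88 and 12.06 in control cells. It was 1.81-fold higher, a change of 0.85 ± 0.13 with no overlap (adjusted p = 9.87e-05, limma). HSPB8 gave 5.10, 5.07 and 5.13 with rosiglitazone, against 5.39, 5.38 and 5.78, a change of -0.42 ± 0.13 (adjusted p = 0.0338, limma). Its groups did not overlap, but this probe was dim in UC7, and the call was lost without background correction (-0.19), with the authors' deposited log2 values (-0.17), with an offset of 50 (-0.23), without the detection filter (adjusted p = 0.054, limma) and with the replicate number as a block (adjusted p = 0.0629, limma). It was also lost without rosiglitazone replicate 1 (-0.42), 2 (-0.40) or 3 (-0.43) and without control replicate 3 (-0.29), the highest control.

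BAG3 gave 8.67, 8.66 and 8.41 with rosiglitazone, against 8.98, 8.99 and 8.98 in control cells, a change of -0.40 ± 0.11 (adjusted p = 0.0116, limma). The groups were apart, and without rosiglitazone replicate 3 the change was -0.32 and did not pass. HSPA1B gave 12.01, 12.02 and 11.87 with rosiglitazone, against 11.46, 11.61 and 11.65, a change of 0.39 ± 0.10 (adjusted p = 0.0108, limma). That call was lost with median scaling (0.33) and without control replicate 1 (0.34). No change is given for HSPA1A, which was undetected in both groups.

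HSPA8 was lower on both probes. Probe ILMN_2413084 gave 12.76, 12.70 and 12.64 with rosiglitazone, against 13.11, 13.07 and 13.04, a change of -0.37 ± 0.08 (adjusted p = 0.00261, limma). Probe ILMN_1686367 gave 12.91, 12.90 and 12.82, against 13.25, 13.25 and 13.03, a change of -0.30 ± 0.10 (adjusted p = 0.0443, limma). The second call was marginal: it was lost with median scaling (-0.28), without the detection filter, with the replicate block (adjusted p = 0.0777, limma), without rosiglitazone replicate 1 (-0.32), 2 (-0.31) or 3 (-0.27), and without control replicate 1 (-0.26) or 2 (-0.26). DNAJB1 gave 9.81, 9.80 and 9.89 with rosiglitazone, against 10.13, 10.09 and 9.93. Its groups did not overlap, and the change of -0.22 ± 0.09 missed the threshold (adjusted p = 0.118, limma) except with array weights (-0.23, adjusted p = 0.0122, limma).

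HSPH1, at -0.13 with a 95% interval of -0.31 to 0.06, did not pass, nor did any HSP90AA1 probe, with changes from -0.18 to 0.14. The HSPE1 probes stood at 0.07 and -0.02, and rosiglitazone replicate 2 of the second gave 9.08, against 10.96 and 10.64 on the other two. In all, 2 of the 14 probes were higher and 4 lower, where 22.3% of all kept probes passed, 11.1% higher and 11.2% lower. With median scaling 1 was higher and 3 lower, and the share of all calls that were higher was 40.3%, against 50% with quantile normalization. Without rosiglitazone replicate 3 the count was 2 higher and 1 lower. The groups did not overlap at 9 of the 14 probes and at 49.5% of all kept probes. The median was -0.12 over the 14 probes and -0.00772 over all kept probes.

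Under rosiglitazone, 7 of the 94 surrounding chaperone genes were higher and 10 lower. Of all 11978 genes 23.6% passed, 12% higher and 11.6% lower. With array weights 15 of the 94 were higher and 21 lower, where 39% of all kept probes passed. With only the 6 arrays compared, 12 were higher and 18 lower, where 38.8% of all kept probes passed. The 17 called in the main fit became 11 without rosiglitazone replicate 2, 10 without rosiglitazone replicate 3 and 11 without control replicate 3. HMOX1 was 1.22 ± 0.17 higher (adjusted p = 6.24e-05, limma) and DNAJA4, a J protein partner of HSP70, 0.83 ± 0.12 higher (adjusted p = 4.06e-05, limma). BAG2 fell by 0.88 ± 0.14 (adjusted p = 0.000183, limma), HYOU1, an HSP110 protein of the ER, by 0.76 ± 0.10 (adjusted p = 2.57e-05, limma), with 0.82 on its other probe, and ZFAND2A by 0.53 ± 0.09 (adjusted p = 0.000447, limma). BAG1 stood at 0.55, a call lost without control replicate 1 (0.47), and PTGES3, an HSP90 co-chaperone, at -0.37, a call lost without rosiglitazone replicate 3 (-0.32). HSPA14 (0.34) and UBQLN2 (0.42) lost their calls with median scaling (0.23 and 0.35). The calls of CHORDC1 (-0.55), CLPX (0.41), LONP1 (-0.31), SQSTM1 (0.34), MAP1LC3B (-0.44) and IER5 (-0.42) each failed with at least 1 array left out, rosiglitazone replicate 3 among these arrays for all but SQSTM1. None of 14 TRiC and prefoldin genes passed, and their changes had a median of -0.10.

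Across the 6 groups, the pattern of HSPB8 was closest to that of BAG3 among the other 9 genes. Likeness was measured on 6 group means, each centred on its gene's own mean, as the root mean square difference in log2 units over 11978 genes, and it is a description. The difference from HSPB8 was 0.718 for BAG3, which placed it at rank 60, and 0.979 for HSPB1, at rank 532. The other members lay between 1.57 and 2.41. The 5 genes closest to HSPB8 were EPB41L4A-AS1, a long noncoding RNA (0.483), ADISSP (0.496), DTD2 (0.501), NMT2, an N-myristoyltransferase (0.502), and TBCE, a tubulin folding cofactor (0.521). All of them, like HSPB8, had both UC7 groups lowest and Scaber with STAT3 siRNA highest. Only EPB41L4A-AS1, ADISSP and TBCE were also lower with p63 shRNA than with non-targeting shRNA by over 0.2.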

How the data were processed

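Per the file headers, the authors exported signal intensities of each probe from GenomeStudio without normalization, with a detection p-value per probe and array that they deposited beside it. They also deposited quantile-normalized log2 values, made with limma per the submitters' processing notes, which give no version. Scanner settings and annotation release are not given in the sources used here.

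The intensities were background-corrected with neqc (limma 3.58.1, R 4.3.3), using detection p in place of negative controls, with an offset of 16 and quantile normalization over 18 arrays, and put on a log2 scale. Probes were named through the platform annotation (30113 with 1 symbol, 8 with several, 17202 not listed), and 30074 matched RefSeq. The 16221 kept probes, detected at p under 0.01 on all 3 arrays of a group, stand for 11978 genes. A mean for each of 6 groups was fitted with lmFit and eBayes (12 residual and 4.27 prior degrees of freedom), and two-sided p-values were adjusted by Benjamini-Hochberg over all kept probes, with 0.05 as the threshold. Each SE pools the within-group spread of all 18 arrays, although the fitted array weights differed by line. With only the 6 arrays compared, 28.7% of kept probes were called under p63 shRNA, against 41.9% in the main fit. Under rosiglitazone 38.8% were called that way, against 22.3% in the main fit. Surrounding genes were counted by their brightest kept probe, and from each list names were drawn from the 3 called genes with the widest changes (in Scaber the threshold served only to pick these names). Lower bounds set the brighter group's mean against the lowest detected signal of the dimmer arrays, on the scale of the main fit only. The number of arrays limits the precision.

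On simulated data for UC14, 84% of probes changed by 1 log2 unit were recovered, and 36% to 40% of those changed by 0.5. Only 50 probes were changed at each size and direction there, and all others were left unchanged. In the data 41.9% of all kept probes were called under p63 shRNA, which shifts the adjusted threshold. The recovered shares therefore do not give the sensitivity of that comparison. Replicate numbers were not used to pair the arrays in the main fit. Correlations of same-numbered deviations were 0.00695, -0.0337 and 0.0327 in UC14, -0.0927, 0.232 and 0.0191 in Scaber, and 0.0552, -0.0143 and 0.108 in UC7. Numbered by title letter, those of UC7 were 0.0552, -0.0569 and 0.0079. With 3 arrays per group, such correlations cannot tell whether same-numbered arrays shared a culture or batch. Promoters were searched with Python 3.11.15 and aligned with Biopython 1.88. The members, lists and tests were chosen with earlier results of these data known.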

Additional observations from a re-analysis of the deposited data

How the results depend on the processing

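The counts were recomputed under 11 other settings and with each array left out. For p63 shRNA in UC14, the 8 member probes called became 5 with median scaling and 5 of 10 with 1 probe per gene, and 7 to 8 with an array left out. The counts past the threshold that were planned for STAT3 siRNA in Scaber are not given, since its values chose the list. For rosiglitazone in UC7, the 6 called became 3 to 5 with an array left out. The 13 called between UC14 and UC7 became 10 to 12. Of the surrounding genes, the 53 of UC14 became 36 with median scaling and 39 with only the 6 arrays compared. They became 42 with array weights, 58 without background correction and 47 to 54 with an array left out. The 17 of UC7 became 36 with array weights and 30 with only the 6 arrays compared, and 10 to 14 with an array left out. The 65 between UC14 and UC7 became 59 to 64. Over all kept probes, the 3616 called under rosiglitazone became 6329 with array weights and 6301 with only the 6 arrays compared. The 6795 called under p63 shRNA fell to 5553 with array weights and 4663 with only the 6 arrays compared.

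Median scaling turned the sign of UC14 minus UC7 for HSPA1B (-0.41), both HSPA8 probes (-0.71 and -0.52) and 2 HSP90AA1 probes (-0.75 and -0.30). Among the changes recomputed, those of the member probes and of the brightest probe of each named gene, no other called one turned its sign. Further probes of the surrounding genes were not recomputed. The replicate block left 8 member probes called in UC14, 4 in UC7 and 12 between UC14 and UC7. The surrounding genes called were then 54, 16 and 64. With the title letter as the number, which differs for 2 rosiglitazone arrays, the member counts were 8, 4 and 11. A slide block was not run, since no slide is given. Dim probes limit what can be read: HSPB8 in UC7 lay near background, and its change there depended on the correction.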
